A study of Mus musculus with 27 samples.

Results

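Stat2, Irf1, Irf3, Irf7, Irf8, Irf9 and Socs1, 7 genes that carry or limit the response of a cell to interferon, were picked by symbol from the 19392 genes of the deposited table, and all 7 were measured. RNA-Seq was performed on the left kidneys of 27 wild-type C57BL/6 mice in the uIRIx model, in which the right kidney was removed and the left renal pedicle was clamped. The 9 groups held 3 mice each. They differed in the ischemia time, which was 0 min (sham), 16, 18, 20, 22, 24, 26, 28 or 30 min, and shared the loss of the right kidney, the warmed platform and a harvest at 24 h of reperfusion. Age and sex are not given in the sources used here, and the sham kidneys were the only ones without a clamp.

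Interferons bind receptors on the cell surface and switch on Janus kinases, which phosphorylate STAT factors. In the response to type I interferon, STAT2 joins IRF9 and a partner STAT in a complex that binds the interferon-stimulated response element (ISRE), while interferon gamma acts mainly through STAT dimers at gamma-activated sites (GAS), as in the Irf1 gene. IRF3 waits in the cytoplasm as a latent protein and is activated by phosphorylation below sensors of foreign or misplaced nucleic acid. IRF7 acts beside it but is itself a target of interferon, which makes a positive loop. IRF1 drives antigen processing genes, IRF8 is a lineage factor of monocytes and dendritic cells, and SOCS1 blocks the Janus kinases as a feedback inhibitor.

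The bases before the transcription start of the 7 genes were searched for both elements. The windows were the 250 bases before each RefSeq start in GRCm38.p6, which matched all 7 genes with 10 windows. The ISRE core was taken as GAAA, any 2 bases and GAAA, and the GAS as TTC, any 3 bases and GAA, on both strands. An ISRE core was present before Stat2 and Socs1, and a GAS before Irf1 and Irf8, which is 2 of 7 genes and 2 of 10 windows for each. Over all 32851 windows, 2.98% held the ISRE core and 7.02% held the GAS. These shares are per window, and the share per gene over all genes was not counted. The windows of Irf3, Irf7 and Irf9 held neither run of letters. The stretches of 100 bases around the matches are shown from 5′ to 3′ on the strand of the gene, with the matches in capitals. They lie at chr10:128270248-128270347 on the plus strand for Stat2, chr16:10785562-10785661 on the minus strand for Socs1, chr11:53769878-53769977 on the plus strand for Irf1 and chr8:120736150-120736249 on the plus strand for Irf8.
Stat2: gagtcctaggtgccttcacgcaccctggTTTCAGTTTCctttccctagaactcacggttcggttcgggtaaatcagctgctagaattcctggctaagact
Socs1: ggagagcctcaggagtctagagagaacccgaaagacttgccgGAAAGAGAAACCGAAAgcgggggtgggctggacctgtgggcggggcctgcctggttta
Irf1: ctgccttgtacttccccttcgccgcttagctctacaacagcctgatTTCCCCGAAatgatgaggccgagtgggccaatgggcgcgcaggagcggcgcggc
Irf8: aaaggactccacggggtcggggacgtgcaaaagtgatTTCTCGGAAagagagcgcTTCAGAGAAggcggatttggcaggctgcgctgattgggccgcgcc
The match of Stat2 started 222 bases before the start and read GAAA on the opposite strand. Socs1 held 2 overlapping matches, 83 and 77 bases before its start. The GAS of Irf1 lay 90 bases before the start, and Irf8 held 2 matches, at 171 and 153 bases. These are matches of letters in a reference sequence, and binding was not measured.

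The unit is FPKM, fragments per kilobase relative to all mapped fragments, a scale on which genes of different length can be compared. Per kidney the values added up to 512453 to 554036, and 16498 to 16904 genes were above 0. The files give no read counts, so counting error cannot be computed. Proximal tubule markers (6 genes such as Lrp2 and Aqp1) summed to between 3122 and 3445 FPKM in the sham kidneys, and to between 714 and 1288 FPKM at 28 and 30 min. Markers of injured tubule (Havcr1, Lcn2 and Krt20) summed to between 12.2 and 86.8 FPKM in the sham kidneys and to at least 68.5 FPKM in every clamped kidney. Sham replicate 3 held the highest sham value of that sum, and 1 clamped kidney, 16 min replicate 3, lay below it at 68.5 FPKM, while the other 23 were at 352.7 FPKM or more. Without that 16 min kidney, 6 of the 7 genes and 28.5% of all genes passed against 0 min at 16 min, in place of 7 and 19.0% with it (limma, adjusted p under 0.05).

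The sham group was split for 6 of the 7 genes. Stat2, Irf1, Irf7, Irf8, Irf9 and Socs1 were high in sham replicates 2 and 3 and low in sham replicate 1, and replicates 2 and 3 lay above all 24 clamped kidneys for each of these genes. The share of all genes with this pattern was not counted. Irf3 was not split. Its 3 sham kidneys lay together, below all 24 clamped kidneys. Every comparison with 0 min rests on these 3 kidneys, so each sham value is given on its own before any mean.

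Stat2 (chr10:128270498-128292853, plus strand) was at 5.69, 27.02 and 28.75 FPKM in sham replicates 1, 2 and 3. The 24 clamped kidneys ran from 4.34 to 7.77 FPKM with a median of 6.32. Sham replicate 1 lay inside that range, with 17 clamped kidneys above it and 7 below, while replicates 2 and 3 were 4.33 and 4.61 times the clamped mean.

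Irf9 (chr14:55603985-55610030, plus strand), which carries DNA contact in the complex with STAT2, was at 7.79, 27.2 and 28.1 FPKM in the sham kidneys. The clamped kidneys ran from 6.79 to 11.4 FPKM with a median of 9.90. The same sham kidney lay low, with 22 of 24 clamped kidneys above it. Replicates 2 and 3 were 3.50 and 3.61 times replicate 1. In the GENCODE annotation 2.28% of the exonic bases of Irf9 are shared with Rnf31, a neighbor on the same strand.

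Irf7 (chr7:141263183-141266499, minus strand) lay farthest from the clamped kidneys. Its FPKM was 18.7, 142.9 and 151.6 in sham replicates 1, 2 and 3, against 4.59 to 18.0 with a median of 9.67 in the clamped kidneys. Unlike Stat2 and Irf9, Irf7 did not overlap between the groups, because even sham replicate 1 lay above all 24 clamped kidneys, at 1.86 times their mean. Replicates 2 and 3 were 14.15 and 15.01 times that mean, and 7.63 and 8.09 times replicate 1.

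Irf1 (chr11:53770014-53778374, plus strand) was at 8.82, 76.6 and 63.9 FPKM in the sham kidneys and ran from 5.06 to 15 FPKM in the clamped kidneys, with a median of 9.67. Replicates 2 and 3 were 8.07 and 6.74 times the clamped mean, and replicate 1 was 0.929 times that mean. Relative to replicate 1 they were at 8.68 and 7.25 times. Both ends of the clamped range came from the 16 min group, at 9.21, 15 and 5.06 FPKM.

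Irf8 (chr8:120736358-120756694, plus strand) was at 8.42, 20.5 and 14.4 FPKM in the sham kidneys. Between 16 and 26 min it ran from 4.54 to 8.26 FPKM with a median of 6.56 in 18 kidneys, so all 3 sham kidneys lay above these 18. At 28 and 30 min 5 of the 6 kidneys rose above that range, and they overlapped sham replicate 1. The split between sham kidneys was the smallest of the 6 genes, with replicates 2 and 3 at 2.43 and 1.71 times replicate 1.

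Socs1 (chr16:10783808-10785536, minus strand) was the lowest of the 7 genes. It stood at 0.64, 4.75 and 3.46 FPKM in the sham kidneys and between 0.35 and 1.36 FPKM with a median of 0.765 in the clamped kidneys. The inhibitor was split in the same way as the activators, with replicates 2 and 3 at 6.09 and 4.43 times the clamped mean.

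Irf3 (chr7:44997648-45002848, plus strand) was at 34.2, 33.4 and 36.0 FPKM in the sham kidneys. The clamped kidneys ran from 36.3 to 50.7 FPKM with a median of 45.9. The groups did not overlap, and the sham kidneys were at 0.756, 0.739 and 0.796 times the clamped mean. Irf3 and Irf7 were the only 2 of the 7 genes without overlap between sham and clamped kidneys. Over all 18188 genes tested, 13.6% had sham kidneys all above or all below the 24 clamped kidneys, and 17.1% all above or all below the 18 kidneys from 16 to 26 min, as Irf3, Irf7 and Irf8 did. Between 1.19% and 3.4% of the exonic bases of Irf1, Irf3 and Irf7 are shared with a gene on the opposite strand. Whether the counting used strand is not given in the sources used here, so reads there cannot be told apart.

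**Figure D1:**
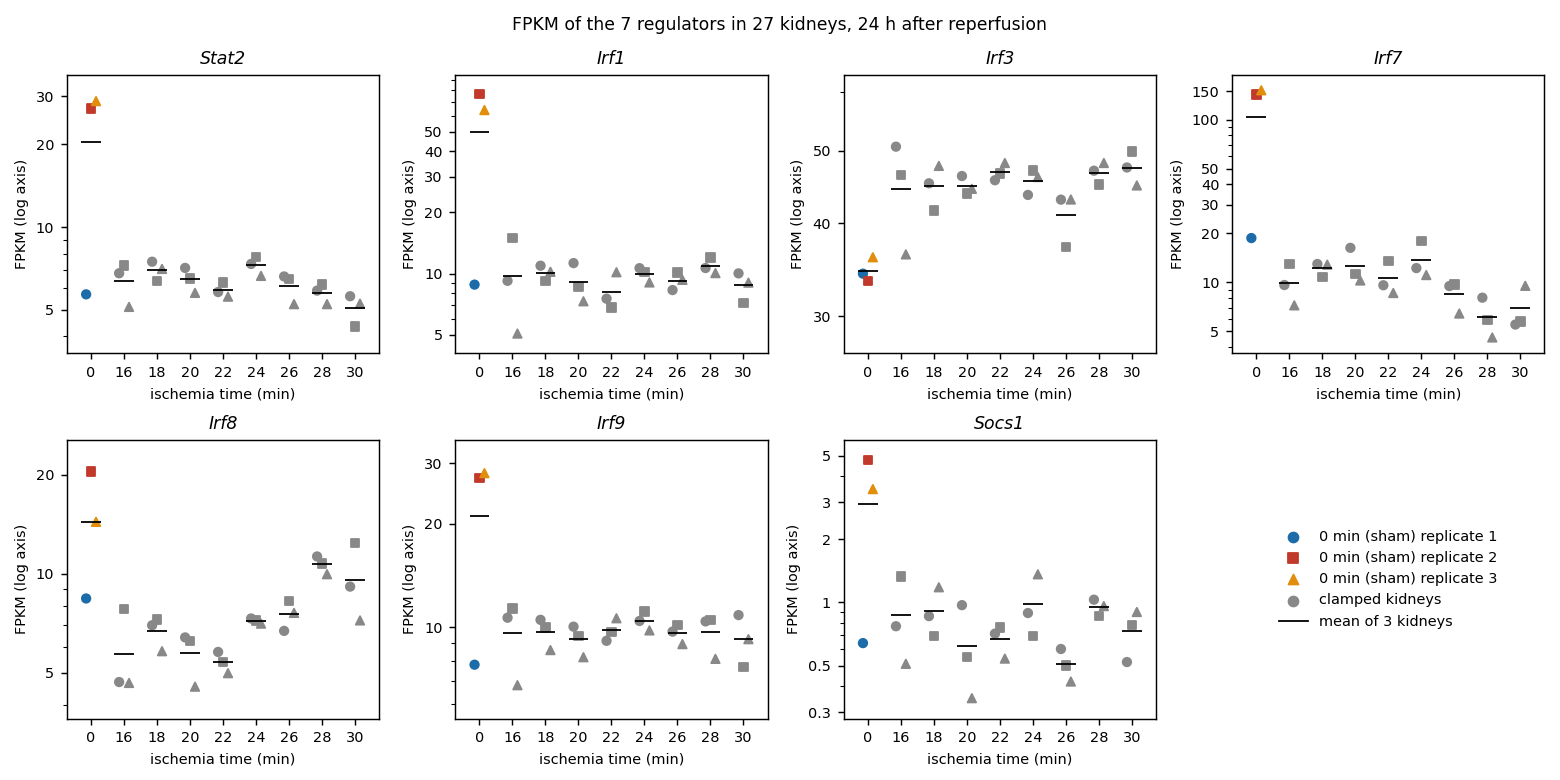
FPKM on a log axis for each gene in 27 kidneys, by ischemia time in min, with the sham replicates in color, the clamped kidneys in gray (circle, square and triangle for replicates 1, 2 and 3) and a bar at the mean of 3 kidneys. Sham replicates 2 and 3 stand above every clamped kidney for 6 genes, sham replicate 1 does so for Irf7 alone, and Irf3 is lowest in the sham kidneys.

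A margin of more than 2 on the log2(FPKM + 1) scale separated sham replicate 1 from both other sham kidneys for few genes. By that margin this kidney was lower for 47 of 18188 genes, which is 0.258%, and higher for 1 gene. Stat2, Irf1 and Irf7 were among the 47, and Irf8, Irf9 and Socs1, though split, were not. Genes with smaller differences were not counted. Replicate 2 was lower than both others by that margin for 0 genes, and replicate 3 for 1 gene. The 46 interferon target genes given in the paragraphs on the pathway were listed by known biology, but with earlier results of these data known. Of these, 24 were lower in replicate 1 by that margin, which is 52.2%.

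Of the immune cell marker lists, that of neutrophils was lowest in sham replicate 1, and the others given here were not. The neutrophil list (5 genes) summed to 5.26 FPKM in replicate 1 and to 9.52 and 11.5 FPKM in the other sham kidneys. The macrophage list (9 genes) summed to between 79.6 and 92.3 FPKM in the 3 sham kidneys, with replicate 1 at 85.4. The T and NK cell list (12 genes) was highest in replicate 1, at 8.57 FPKM, against 3.37 and 3.39 FPKM in the others. The plasmacytoid dendritic cell list (4 genes) ran from 5.34 to 6.72 FPKM with replicate 1 at 5.64. The part of these cells in the split was not tested. Ifng was listed at 0.11, 0.10 and 0.05 FPKM in sham replicates 1, 2 and 3, and Ifnb1 at 0 in all 3. In whole kidney RNA, fewer cells of a type and less RNA per cell cannot be told apart.

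**Figure D2:**
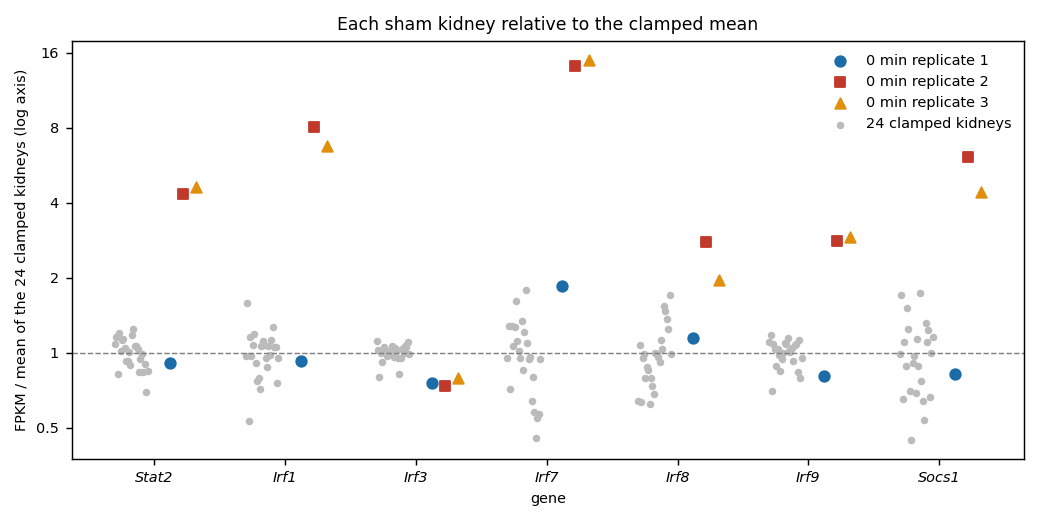
FPKM of each gene divided by its mean in the 24 clamped kidneys, on a log axis, for the 24 clamped kidneys (gray) and each of the 3 sham kidneys (color). Sham replicate 1 sits at 0.756 to 1.86 times the clamped mean, and replicates 2 and 3 reach 14.15 and 15.01 times for Irf7.

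Each ischemia time was next compared with 0 min. A fall or a rise of a gene below means a lower or higher mean than that of the sham kidneys. For Stat2, Irf1, Irf9 and Socs1, sham replicate 1 lay inside the clamped range. Their differences thus rest on sham replicates 2 and 3, and an effect of the clamp cannot be told apart from the split. In limma, with 1 mean per ischemia time and the spread estimated from all 27 kidneys, 7 of 7 genes passed an adjusted p of 0.05 at 16, 18, 20, 22, 24 and 30 min, and 6 of 7 at 26 and 28 min. Of all genes, 19.0%, 27.8%, 22.8%, 28.8%, 28.3%, 30.1%, 48.2% and 52.3% passed at 16, 18, 20, 22, 24, 26, 28 and 30 min. Lower at each time were 6 of the 7 genes, except at 28 min, where 5 were lower. The share of all genes that were lower was 9.61%, 15.2%, 12.1%, 15.4%, 14.8%, 15.2%, 23.6% and 25.4% in the same order. The adjusted p-values are those of limma with the method of Benjamini and Hochberg.

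These calls lean on the pooled spread. For Stat2 the SD was 12.8 FPKM at 0 min against 0.363 to 1.12 FPKM at the other times. With only the 2 compared groups in the fit, between 0 and 3 of the 7 genes passed, from 16 to 30 min 0, 3, 2, 3, 2, 1, 2 and 2. These were Irf8 from 18 to 24 min, and Irf7 and Irf3 at the times given below. Stat2, Irf1, Irf9 and Socs1 passed at no ischemia time in that fit. Of all genes, 0.409%, 29.3%, 21.2%, 32.2%, 30.2%, 28.0%, 52.6% and 46.5% passed in that fit, so the share of the 7 genes was above that of all genes at 18, 20 and 22 min and below it at the other times. Without sham replicate 2 the counts were 2, 3, 5, 6, 3, 5, 4 and 6, without replicate 3 they were 5, 3, 6, 6, 4, 5, 4 and 6, and without replicate 1 they were 7, 7, 7, 7, 7, 6, 7 and 7. The share of all genes that passed ran from 10.2% at 16 min to 47.0% at 30 min without replicate 2, from 16.0% to 49.8% without replicate 3 and from 15.2% to 48.5% without replicate 1.

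Irf7 fell the most. Its log2 difference from 0 min was -2.86 at 16 min (standard error 0.482, adjusted p = 0.000528), -2.43 at 24 min and -3.47 at 28 min. Irf7 passed at all 8 times with any single sham kidney left out. With only the 2 compared groups in the fit, its call was lost at 16, 20 and 24 min (adjusted p = 0.118, 0.0651 and 0.0569). The fall of Irf1 was between -1.73 at 28 min and -2.10 at 22 min on the log2 scale (standard error 0.475), with adjusted p-values from 0.00136 to 0.00805. The call of Irf1 was lost without sham replicate 2 at 16, 18, 20 and 24 min (adjusted p from 0.0505 to 0.0657) and without sham replicate 3 at 18 min (adjusted p = 0.0505).

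Stat2 and Irf9, partners in one complex, both fell. The log2 difference of Stat2 was between -1.21 and -1.65, and at 16 min it was -1.37 (95% interval -2.04 to -0.69, adjusted p = 0.00612, and 0.0518 without sham replicate 2). The call of Stat2 was also lost at 18 and 24 min without sham replicate 2 or 3 (adjusted p from 0.0510 to 0.0666).

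Irf9 was near -1 at each time, from -0.853 at 24 min (adjusted p = 0.0290, and 0.0509 to 0.179 without sham replicate 2 or 3 or any 24 min kidney) to -1.01 at 30 min (adjusted p = 0.00487). At 7 of the 8 times, all but 30 min, the call was lost without sham replicate 2 and without sham replicate 3, and with single kidneys left out the difference ran from -0.57 at 24 min to -1.57 at 30 min. Socs1 differed by -0.908 to -1.31, and since its FPKM was low, the log2(FPKM + 1) scale understates its fold change. Its call was lost without sham replicate 2 and without sham replicate 3 at 16, 18, 24 and 28 min (adjusted p from 0.0553 to 0.133), and at 28 min the difference moved to -0.53 without replicate 2 and to -1.46 without replicate 1.

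Irf8 fell by 1.24 at 16 min (standard error 0.221, adjusted p = 0.000788) and fell by 1.29 at 22 min on the log2 scale. At 28 min the difference was -0.44 (95% interval -0.90 to 0.02, adjusted p = 0.109), which did not pass (adjusted p = 0.00441 without sham replicate 1), and at 30 min it was -0.59 (adjusted p = 0.0296). At 30 min that call was lost without sham replicate 2 (adjusted p = 0.237), sham replicate 3 (0.0734) or 30 min replicate 1 or 3.

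Irf3 was the 1 gene that rose. Its log2 difference from 0 min was 0.27 at 16 min (standard error 0.0727, adjusted p = 0.0151, and 0.0643 to 0.105 without sham replicate 2 or 16 min replicate 1 or 2), 0.33 at 22 min (adjusted p = 0.00188) and 0.41 at 30 min (adjusted p = 7.31e-05). At 18 min the call was lost without 18 min replicate 3 (adjusted p = 0.0529). At 26 min the difference was 0.15 (95% interval 0.00 to 0.31, adjusted p = 0.119, and 0.0436 without 26 min replicate 2). The rise was small beside the falls, and the interval at 30 min ran from 0.26 to 0.56. From 18 to 24 min and at 28 and 30 min, Irf3 also passed with only the 2 compared groups in the fit. At 16 min it did not pass in that fit. Its sham kidneys were at 34.5 ± 1.31 FPKM and its 16 min kidneys at 44.5 ± 7.38 FPKM (SD, n = 3).

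**Figure D3:**
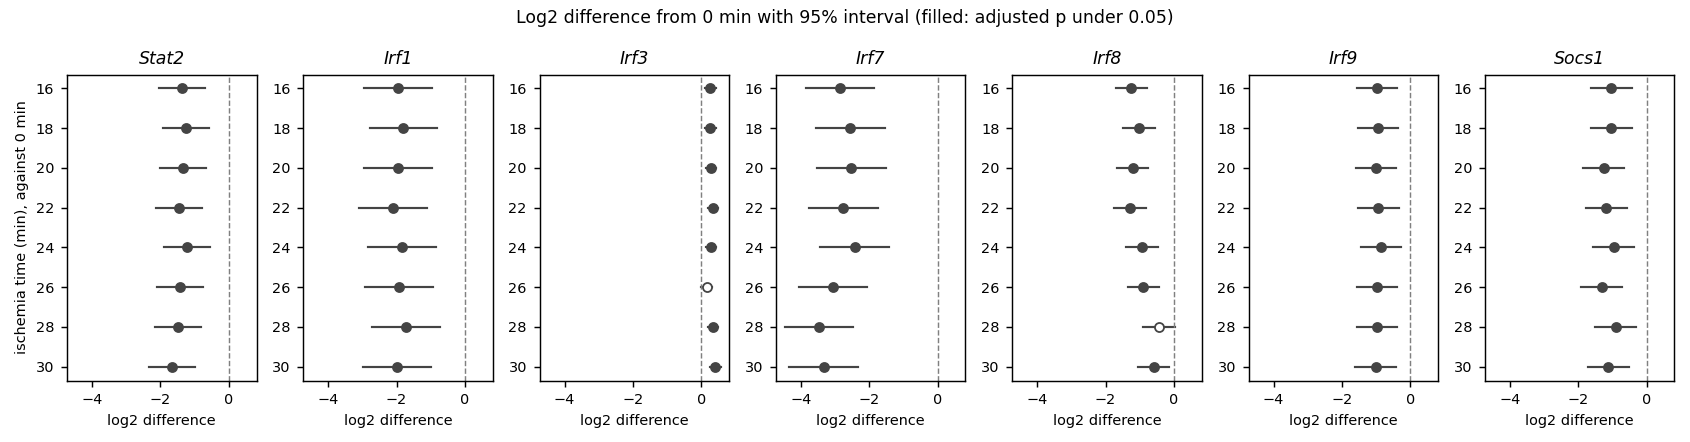
Log2 difference from 0 min (x axis) at each ischemia time in min (y axis), with the 95% interval from limma, filled where the adjusted p was under 0.05. Irf7 lies farthest to the left, at -2.43 to -3.47, Irf3 lies to the right of 0, and the open points are Irf3 at 26 min and Irf8 at 28 min.

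Between 16 and 26 min 0 of the 7 genes had a slope that passed in limma, and 0 had an unadjusted p under 0.05, against 8.32% of all genes. The largest was that of Irf8, at 0.0278 per min on the log2 scale (95% interval -0.0112 to 0.0668, adjusted p = 0.741). Of all genes, 0.0110% passed for this slope. In the order of the 9 group means, all neighbors overlapped in their single kidneys for Stat2, Irf1, Irf8, Irf9 and Socs1. For Irf7 and Irf3 the only neighbors without overlap were 0 min and the time next to it in the order, 24 min for Irf7 and 26 min for Irf3. The share of all genes with such a gap between neighbors was not counted. The group means of the clamped kidneys ran from 5.07 to 7.25 FPKM for Stat2, from 8.16 to 10.9 for Irf1, from 9.23 to 10.5 for Irf9 and from 0.507 to 0.980 for Socs1.

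The step from 26 to 28 min, one of the key intervals of the study, and the step from 28 to 30 min were compared next. None of the 7 genes passed in either step by limma, and 1 of 7 had an unadjusted p under 0.05 in the first (Irf3) and 0 in the second, against 31.0% and 26.8% of all genes. Of all genes, 19.3% passed between 26 and 28 min and 13.2% between 28 and 30 min. The intervals were wide for several genes. For Irf8 the difference between 28 and 26 min was 0.45 (95% interval -0.01 to 0.90, adjusted p = 0.174), and for Irf7 it was -0.41 (95% interval -1.42 to 0.59, adjusted p = 0.634). With only these groups in the fit, 2 of 7 genes passed between 26 and 28 min (Irf8 with an adjusted p of 0.0153 and Socs1 with 0.0127), and 0 between 28 and 30 min, against 21.4% and 0% of all genes in these fits.

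The mean of 28 and 30 min against the mean of 16 to 26 min, which leaves out the sham kidneys, separated 3 of the 7 genes. Irf8 and Irf3 were higher and Irf7 was lower. Over all genes 52.1% passed in this comparison, so the share of the 7 genes was no higher than that of all genes.

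Irf8 had the clearest difference. It was at 11.3, 10.8 and 9.98 FPKM at 28 min and at 9.15, 12.4 and 7.22 FPKM at 30 min, against a median of 6.56 and a highest value of 8.26 in the 18 kidneys from 16 to 26 min. Only 30 min replicate 3 fell inside that range. The log2 difference was 0.58 (standard error 0.128, adjusted p = 0.000622), and it passed with any 1 of the 24 clamped kidneys left out, with values from 0.48 to 0.67.

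Markers of immune cells were compared between the same 2 sets of kidneys, and no list was made for monocytes. Of the macrophage list 1 gene was higher (Itgam) and 4 of 9 were lower (Csf1r, C1qa, C1qb and C1qc), and its summed level was 83.7 to 163 FPKM at 16 to 26 min and 86.6 to 166 FPKM at 28 and 30 min. Of the conventional dendritic cell list 1 of 7 genes was higher and 2 lower, with sums of 2.87 to 5.85 and 2.74 to 4.78 FPKM. Of the plasmacytoid dendritic cell list 1 of 4 was higher and 1 lower, with sums of 6.07 to 15.3 and 7.27 to 24.6 FPKM, and of the B cell list 2 of 4 were lower, with sums of 0.60 to 1.75 and 0.48 to 1.42 FPKM. All 5 genes of the neutrophil list were higher, with sums of 3.79 to 12.03 FPKM at 16 to 26 min and 15.2 to 30.3 FPKM at 28 and 30 min. No marker of these lists was at 0 in every kidney of either group, and the part of these cells in the level of Irf8 was not tested.

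Irf7 went the other way. It was at 8.06, 5.86 and 4.59 FPKM at 28 min and at 5.51, 5.74 and 9.53 FPKM at 30 min, against a range of 6.44 to 18.0 and a median of 10.9 at 16 to 26 min. The 4 lowest of these late kidneys lay below that range. The log2 difference was -0.71 (95% interval -1.29 to -0.13, adjusted p = 0.0388). It passed narrowly, and leaving out 1 of 10 of the 24 clamped kidneys raised the adjusted p above 0.05, up to 0.102 without 28 min replicate 3.

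Irf3 was higher by 0.11 on the log2 scale (standard error 0.0420, adjusted p = 0.0317), with 45.1 to 48.2 FPKM at 28 min and 44.9 to 49.9 FPKM at 30 min against 36.3 to 50.7 FPKM at 16 to 26 min. The groups overlapped fully. The call was lost without quantile normalization (adjusted p = 0.181) and with FPKM rescaled to a constant sum (adjusted p = 0.134), and without 28 min replicate 1 or 3 or 30 min replicate 1 or 2 (adjusted p from 0.0512 to 0.0885). Stat2 (-0.23, adjusted p = 0.328), Irf1 (0.06, adjusted p = 0.872), Irf9 (-0.05, adjusted p = 0.831) and Socs1 (0.12, adjusted p = 0.594) did not pass. With the sham kidneys left out of the fit, which lowers the estimated spread of the split genes, 4 of 7 genes passed, Stat2 (adjusted p = 0.00185), Irf7 (adjusted p = 0.000378), Irf8 and Irf3, against 52.3% of all genes.

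The other genes of the pathway were taken from lists made by known function, and their counts are given with the median log2 difference, which over all genes was within 0.01 of 0 in each comparison named here. Of all genes, 9.43% were higher and 9.61% lower at 16 min, 26.9% and 25.4% at 30 min, and 29.6% and 22.5% at 28 and 30 min against 16 to 26 min. Among interferons and their receptors, 8 of 13 listed genes were in the table and 7 were tested. At 16 min Ifngr2, a chain of the interferon gamma receptor, was higher, Ifnlr1 and Ifng were lower and 4 did not pass. The call of Ifngr2 at 16 min was lost without any 1 of the sham kidneys (adjusted p from 0.0516 to 0.0669), and without sham replicate 1 or 2 none of the list passed at that time. At 30 min 5 receptor chains were higher, led by Ifngr2 (1.54, adjusted p = 3.97e-07) and Ifngr1 (0.81, adjusted p = 0.000198), and Ifng was lower. The median of the list was 0.05 at 16 min and 0.28 at 30 min. Ifngr2 rose from 12.7, 13.8 and 13.1 FPKM in the sham kidneys to between 34.5 and 43.0 FPKM at 28 and 30 min. Ifng never exceeded 0.11 FPKM in any kidney.

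Of 9 Janus kinases and other STAT factors, 2 were higher and 1 lower at 16 min, and 6 were higher and 1 lower at 30 min (medians -0.03 and 0.29). Stat3, which carries signals of the interleukin 6 family, differed by 1.15 at 30 min (adjusted p = 1.81e-05), and Jak3 by 0.99 (adjusted p = 6.28e-06). Without sham replicate 2 the counts at 16 min were 0 higher and 1 lower. Stat3 was also lowest in sham replicate 1, at 16.7 FPKM against 28.0 and 28.3 FPKM. Of 3 other IRF factors, 1 was lower and 0 were higher at 16 min, at 30 min and at 28 and 30 min against 16 to 26 min (medians 0.00 at 16 min and -0.23 at 30 min). Irf2 was lower at 16 min (-0.28, adjusted p = 0.0384) and at 30 min (-0.23, adjusted p = 0.0461), and both calls were lost without sham replicate 2 (adjusted p = 0.263 and 0.373). Irf5 was lower at 28 and 30 min than at 16 to 26 min, with a log2 difference of -0.67 (adjusted p = 9.70e-05).

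Sensors and adaptors above IRF3 and IRF7 moved in both directions. At 16 min 9 of 17 were lower and 0 were higher, with Zbp1 (-1.41), Dhx58 (-1.08) and Ifih1 (-0.94) at the head, and these are themselves genes that interferon induces. The 9 became 2 without sham replicate 2, 4 without replicate 3 and 0 with only the 0 and 16 min groups in the fit, and Zbp1 and Dhx58 were among the calls lost in each. At 30 min 5 were lower and 5 were higher (medians -0.21 and -0.06). Sting1, the adaptor of cytosolic DNA sensing, was higher by 1.34 on the log2 scale (adjusted p = 0.000195), while Zbp1 fell by 2.05 (adjusted p = 0.000528). Against 16 to 26 min, 7 of 17 were higher at 28 and 30 min and 0 were lower, among them Sting1 (0.63), Tlr4 (0.54) and Traf3 (0.43). Zbp1 was split like the regulators, at 1.19, 11.5 and 12.3 FPKM in the sham kidneys, and Sting1 was not, at 2.36, 1.85 and 3.36 FPKM.

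Negative regulators gave 1 higher and 3 lower of 16 at 16 min, and 5 higher and 4 lower at 30 min (medians -0.02 and 0.05). At 30 min these are 9 of 16, close to the 52.3% of all genes that passed. At 16 min none of the list passed without sham replicate 2, without replicate 3 or with only the 0 and 16 min groups in the fit. Usp18, an interferon target that restrains the type I receptor, fell by 1.32 at 16 min (adjusted p = 0.0186, and 0.119 and 0.106 without sham replicates 2 and 3), with 1.39, 9.51 and 10.7 FPKM in the sham kidneys. Socs3, the relative of Socs1 that answers to STAT3, was higher by 2.53 at 30 min (adjusted p = 0.000216). Socs3 thus differed from 0 min in the direction opposite to Socs1. Its sham values of 1.38, 1.18 and 4.16 FPKM were below the 12.4 to 21.4 FPKM of 28 and 30 min.

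Targets of type I interferon were mostly lower in the clamped kidneys. Of 25 tested, 18 were lower and 0 higher at 16 min (median -1.44), and 22 were lower and 1, Isg20, was higher at 30 min (median -1.80). Bst2, an antiviral tether, fell by 2.13 at 16 min (adjusted p = 0.00190) and Ifit3 fell by 2.81 at 30 min (adjusted p = 9.93e-05). Bst2 stood at 27.2, 173.1 and 179.7 FPKM in the sham kidneys and at 13.2 to 36.9 FPKM from 16 to 26 min. The mean log2(FPKM + 1) over the 25 genes was 2.30 in sham replicate 1, below 21 of the 24 clamped kidneys, and 4.36 and 4.43 in replicates 2 and 3, above all of them.

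Targets of interferon gamma and IRF1, mostly genes of antigen processing and guanylate binding proteins, gave 17 lower and 0 higher of 21 at 16 min (median -2.21) and 18 lower and 0 higher at 30 min (median -2.35). Igtp, an interferon-induced GTPase, fell by 4.28 at 16 min and fell by 5.30 at 30 min, and stood at 17.4, 503.1 and 362.6 FPKM in the sham kidneys. Cd74, the invariant chain of class II antigen presentation, fell by 3.51 at 16 min (adjusted p = 3.07e-06). Cd74 was not split, at 673.6, 622.3 and 624.0 FPKM in the sham kidneys against a highest value of 87.7 FPKM among the clamped kidneys. Ciita, the activator of class II genes, was split, at 1.04, 17.3 and 10.8 FPKM. The mean log2(FPKM + 1) over the 21 genes was 3.55 in sham replicate 1, above 23 of the 24 clamped kidneys, and 5.89 and 5.47 in replicates 2 and 3, above all of them.

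Some markers of T and NK cells, a source of interferon gamma, were also lower in the clamped kidneys. Counts of lower genes among the 12 of this list were 5, 2, 2, 4, 4, 5, 9 and 8 from 16 to 30 min. In each of these comparisons 0 genes were higher. The summed level of the list was 3.37 to 8.57 FPKM in the sham kidneys, 2.24 to 3.42 FPKM at 16 min and 0.81 to 1.36 FPKM at 28 and 30 min. The 18 min kidneys, with sums of 4.23 to 5.2 FPKM, lay above sham replicates 2 and 3 (3.37 and 3.39 FPKM) and below sham replicate 1. Without sham replicate 1, where the sum was highest, 1 gene was lower at 16 min and 8 at 30 min. With only the 0 and 16 min groups in the fit 0 of 12 passed, and with only 0 and 30 min 5 of 11 were lower. The part of these cells in the level of the targets was not tested.

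The counts of both target lists moved with the sham kidneys. Without sham replicate 1, the type I list gave 23 lower at 16 min and the interferon gamma list gave 21. Without replicate 2 these counts were 9 and 13, and without replicate 3 they were 9 and 15. With only the 0 and 16 min groups in the fit they were 0 and 2, and with only 0 and 30 min they were 8 and 11.

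Between clamped groups the targets moved less. At 28 and 30 min against 16 to 26 min, 6 of 25 type I targets were lower, with Ifi27l2a at -1.81 and Ifit3 at -0.84, and 2 were higher, Oasl1 (0.80) and Isg20 (0.68). Of the interferon gamma list 4 of 21 were lower, Gbp3, Gbp2, Cd74 and Cxcl9.

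**Figure D4:**
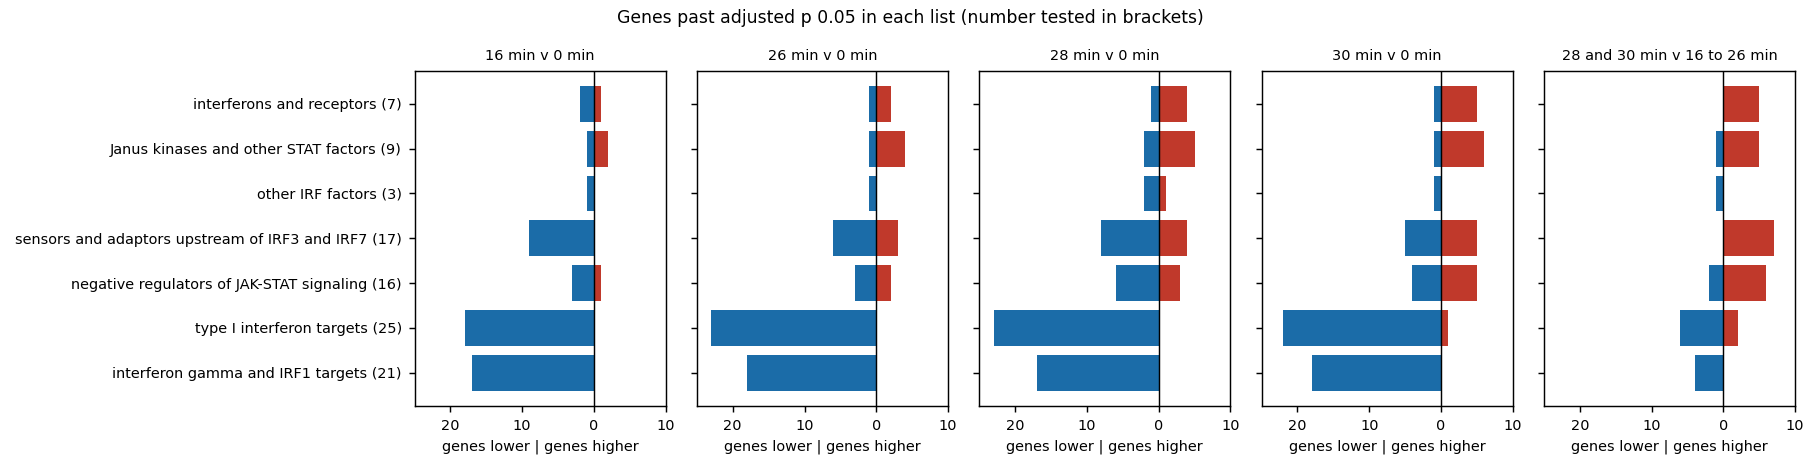
Number of genes in each pathway list that passed an adjusted p of 0.05 in limma, with lower genes to the left (blue) and higher genes to the right (red), for 5 comparisons and the number tested in brackets. The target lists extend to the left against 0 min, with 18 of 25 and 17 of 21 at 16 min, while at 28 and 30 min against 16 to 26 min 5 of 7 interferons and receptors, 5 of 9 kinases and STAT factors and 7 of 17 sensors were higher, beside 29.6% of all genes.

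The likeness of the 7 genes to one another was described by Pearson's r of the normalized log2 values, with kidneys as points that share their group and, for 3 of them, the sham state. For all of them but Irf3, sham replicates 2 and 3 lay above every other kidney, and r over 27 kidneys includes these points. Over 27 kidneys, r was 0.96 between Stat2 and Irf9, 0.96 between Irf1 and Irf9, 0.96 between Stat2 and Irf7 and 0.92 between Irf1 and Socs1. Over the 24 clamped kidneys r was 0.62, 0.70, 0.80 and 0.44 for the same pairs. Irf7 and Irf8 had r of 0.53 over 27 kidneys and -0.49 over the clamped kidneys, and r was also negative there between Stat2 and Irf8, at -0.30. Irf3 had negative r with the 6 others over 27 kidneys, from -0.34 with Irf8 to -0.59 with Irf7. Over the clamped kidneys its r ran from -0.16 with Stat2 to 0.38 with Socs1, and was positive with 4 of the 6.

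The genes most like each of the 7 were sought among 12929 genes at 1 FPKM or more in at least 3 kidneys. Over 27 kidneys the 3 nearest were Apol9b, Oasl2 and Iigp1 for Stat2 (r from 0.98 to 0.99), Parp14, Tap1 and Irf9 for Irf1, Bst2, Tgtp2 and Iigp1 for Irf7 and Xaf1, Irf1 and Parp14 for Irf9. For Socs1 they were Parp10, Ifit2 and Irf1, and for Irf8 they were Dtx4, Erap1 and Ddx58, with r no higher than 0.86. Irf3 stood beside other genes, Capg, Map1s and Cavin3 (r from 0.90 to 0.92).

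Over the 24 clamped kidneys, interferon targets were still nearest to Stat2 and Irf7. They were Oas1a, Phf11d and Oasl2 for Stat2 (r from 0.88 to 0.90) and Oasl2, Ifit1 and Zbp1 for Irf7 (r from 0.85 to 0.90). Irf1 was nearest to Igsf8, Nfkbie and Bcl3 (r from 0.80 to 0.82), the last 2 being regulators of NF-kappaB. Irf9 was nearest to Plac8, Oas1a and Ddx41, Irf8 to Nfu1, Nudcd2 and Prep (r from 0.89 to 0.90) and Irf3 to H2aj, Crb3 and Nupr1. Socs1 was nearest to Lin37, at r of 0.70.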

How the data were processed

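The authors deposited 1 table of FPKM values per gene symbol and kidney, rounded to 2 decimals (the paper names the unit RPKM). The submitters' processing notes name Bowtie2, RSEM, DESeq2 and the build GRCm38.p6. The table holds no read counts, so no count test was used and the depth is unknown. The smallest steps between low values in 14 genes were worth between 0.939 and 1.05 times the median in 26 kidneys, so these were of similar depth if a step is 1 fragment.

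The labels gave the ischemia time of each sample. Values were taken as log2(FPKM + 1), quantile normalized and fitted with limma 3.58.1 under R 4.3.3, after the study's methods, over the 18188 genes that exceeded 0 FPKM in 3 or more kidneys. A gene passed with a p-value under 0.05 after adjustment over all these genes (Benjamini and Hochberg). The steps were tested on simulated data in which each gene had the same spread in every group. The wider spread of the sham kidneys was not part of that test. The members and lists were chosen with earlier results of these data known. Named genes were the 7 members, at most 3 passing genes per list and comparison by size of difference (16 and 30 min against 0 min, and 28 and 30 min against 16 to 26 min) and the 3 genes nearest to each member. Ciita, markers and genes of counts of 5 or fewer were chosen after their values were seen. Alternatives changed the pseudocount (0.1 FPKM), the scaling (none, or a constant sum, TPM), the filter (1 FPKM in 3 kidneys, or none) and the fit (only the groups compared, limma-trend, a replicate block), and left out each kidney in turn. The replicates are separate mice, and the labels give no batch. Promoter sequences, starts and coordinates are from RefSeq (GRCm38.p6), and exon overlaps from GENCODE M21. Some items are not reported here.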

Additional observations from a re-analysis of the deposited data

Results flagged for a closer look

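The difference from 0 min was unlike between 28 and 30 min and 16 to 26 min for 3 of the 7 genes, by limma's test of the difference between the 2 means (adjusted over all genes). Of all genes 52.1% passed in the same test, so the count is not above that of all genes. For Irf8 the difference between them was 0.58 on the log2 scale (adjusted p = 0.000622), with 5 of 6 late kidneys above all 18 others. For Irf7 it was -0.71 (adjusted p = 0.0388), with 4 of 6 late kidneys below all 18 others. For Irf3 it was 0.11 (adjusted p = 0.0317), with 0 of 6 late kidneys above or below all others. Groups of 3 kidneys are too small for a test of single outlying kidneys, so the split of the sham group is given as values only.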

How the results depend on the processing

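With only the compared groups in the fit, the number of the 7 genes that passed against 0 min was 0, 3, 2, 3, 2, 1, 2 and 2 from 16 to 30 min, and 2 for 28 against 26 min, where the share of all genes was 0.409% at 16 min, 21.2% to 52.6% at the later times and 21.4% for 28 against 26 min. This fit estimates the spread from 6 kidneys in place of 27. Leaving out the kidneys 1 by 1, the counts ran from 2 to 7 at 16 min, from 3 to 7 at 18 min, from 5 to 7 at 20 min, from 6 to 7 at 22 min, from 3 to 7 at 24 min, from 5 to 7 at 26 min, from 4 to 7 at 28 min and from 6 to 7 at 30 min. The lowest counts were without sham replicate 2 at 16 and 24 min, and without sham replicate 2 or 3 at 18 min. For 28 and 30 min against 16 to 26 min the counts ran from 1 to 3, with 1 without 28 min replicate 3, 30 min replicate 1 or 30 min replicate 2, where Irf8 alone passed. Irf9 had no call in that comparison, and its difference ran from -0.1027 to 0.0003765, with 0.00038 and 0.00014 without 28 min replicate 3 and without 30 min replicate 2. The cause of these changes was not tested. Without quantile normalization and with a constant sum, 3 single calls each were lost (Irf9 at 24 min, Irf8 at 30 min and Irf3 at 28 and 30 min against 16 to 26 min) and 1 was gained (Irf3 at 26 min). The pseudocount, the filters and limma-trend changed 0 of 63 single calls. Replicate numbers in the labels were treated as names. The residuals of same-numbered kidneys had a mean correlation of 0.00868 over 108 pairs, with single pairs from -0.416 to 0.48. Such a mean cannot show whether some of these kidneys shared a batch. With a replicate block 7, 7, 7, 7, 7, 6, 6 and 7 genes passed from 16 to 30 min, as without it. Depth is unknown, so the precision of the low values of Socs1 can be judged from the 3 kidneys per group alone.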
